A study of Nicotiana tabacum with 39 samples.

Results

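Of 53725 transcripts counted in young leaves of cultivated tobacco (Nicotiana tabacum, an allotetraploid), the 107 described here are those whose level was highest 1 h after dark-kept plants were returned to light. They were chosen from the counts themselves. Levels are in CPM, the count divided by the library total and scaled to a total of 1000000, and each group mean was over 3 libraries. A transcript was kept if its highest group mean was at 1 h, if that mean was at least 5 CPM, and if it was at least 3 times each of the means at the end of darkness, at 16 h and in control, with 0.1 added to each mean in the ratios. The highest mean was at 1 h for 3945 transcripts, 1716 of these reached 5 CPM, and 107 also met the ratio, which was under the cap of 200. The ratio used below is that of the 1 h mean to the highest of the 3 comparison means. It ran up to 26.2 with a median of 4.38. The lowest ratios inside the threshold were 3.01 and 3.01 and the highest outside it were 2.99 and 2.99. The lowest 1 h means inside were 5.42 and 5.48 CPM, against 4.94 and 4.87 CPM just outside.

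All plants grew on soil in long days until near maturity. In 12 groups they were then kept in extended darkness, which left young leaves pale, and leaves were taken at the return to light (0 min) and 5, 10 and 30 min and 1, 2, 4, 8, 16, 40 and 64 h after it, with a last harvest at 6720 min. A control group had no darkness. Each library is a pool of mid-leaf tissue of 2 young leaves from each of 3 plants, so the spread between the 3 libraries of a group is a spread between pools. In such pools, a change in the mix of cells and a change in RNA per cell cannot be told apart. How long the darkness lasted, and at what clock time control leaves were taken, the sources used here do not give. No dark-kept plants were sampled at the light times analysed here, so time in light and time of day cannot be told apart, except among 16, 40 and 64 h and the last harvest, which lie whole days apart. Library totals ran from 15844109 to 37269515 counts, with a median of 21130744.

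De-etiolation is the greening of pale tissue in light, in which etioplasts become chloroplasts. As background from Arabidopsis, phytochromes and cryptochromes sense the light, the COP1/SPA ubiquitin ligase and the PIF transcription factors, which hold back light responses in darkness, lose activity, and HY5 accumulates and drives light-induced genes. Many early light-induced transcripts are known there to be short-lived, among them transcription factor mRNAs and those of ELIPs, photoprotective proteins of the thylakoid. Which of these roles the 107 members have is not known here. The tables identify transcripts by NCBI GI number only, and none of the 53725 identifiers (0 matches) is held by the gene table used for names, so no gene name, chromosome or sequence is given, leaf markers could not be checked, and 4 members are printed by identifier. The others are named by their rank in the ratio.

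Most of the members were low in control and at the end of darkness, stood well above both at 30 min, were highest at 1 h and were lower at 2 h, though still well above the early levels. The median CPM over the 107 members was 5.14, 6.14 and 5.31 in the 3 control libraries and 5.18, 5.29 and 5.02 at 0 min. It was 13.2, 12.8 and 17.1 at 30 min, 45.9, 42.4 and 46.7 at 1 h and 28.5, 33.4 and 26.6 at 2 h. The libraries of these times did not overlap with each other or with those of control and 0 min. At 4 h the medians were 4.90, 9.33 and 9.13 CPM, at 8 h 5.15, 9.32 and 4.45 CPM, and at 16 h 4.95, 5.44 and 4.73 CPM. The 1 h, 0 min, 16 h and control levels chose the members, so these values describe the choice and carry no test.

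**Figure D1:**
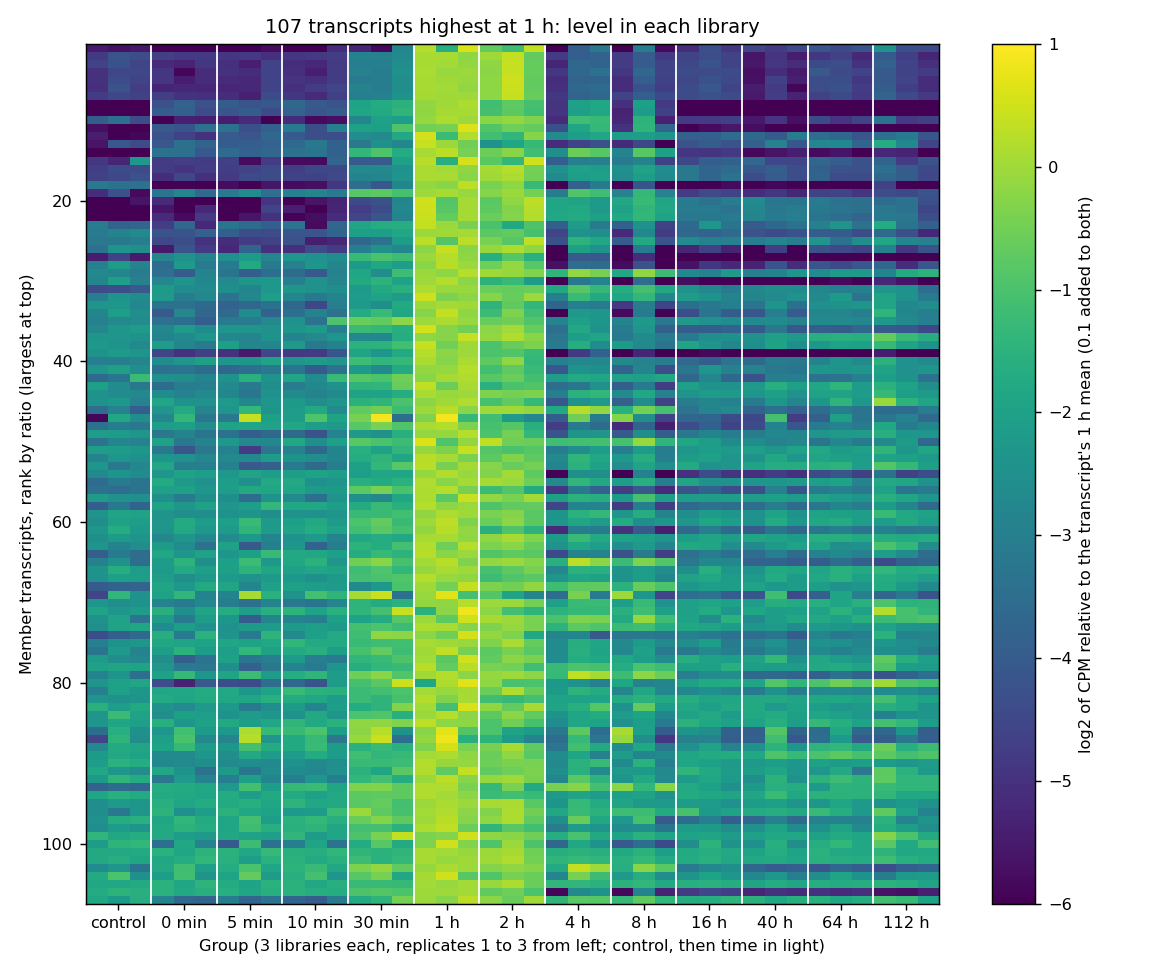
Level of each of the 107 members (rows, largest ratio at the top) in each of the 39 libraries (columns, 3 per group), as the log2 of CPM relative to the transcript's own 1 h mean with 0.1 added to both. The bright band spans 1 h and 2 h in nearly all rows, and at 4 h the first of the 3 columns is darker than the other two.

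Together the members held a small share of all counts. The share was 0.234% ± 0.056 in control (SD, n = 3 here and for the following shares) and 0.353% ± 0.096 at 0 min. It was 0.890% ± 0.182 at 30 min, 1.70% ± 0.20 at 1 h and 1.34% ± 0.145 at 2 h. By 16 h it was 0.211% ± 0.024, and at the last harvest 0.203% ± 0.028. The sum leans on a few transcripts. The 4 members with the highest CPM at 1 h had means of 2618, 2475, 1939 and 1071 CPM there and held 47.6% of the members' summed CPM at 1 h and 59.9% at 0 min. The median is therefore the better guide to a typical member.

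**Figure D2:**
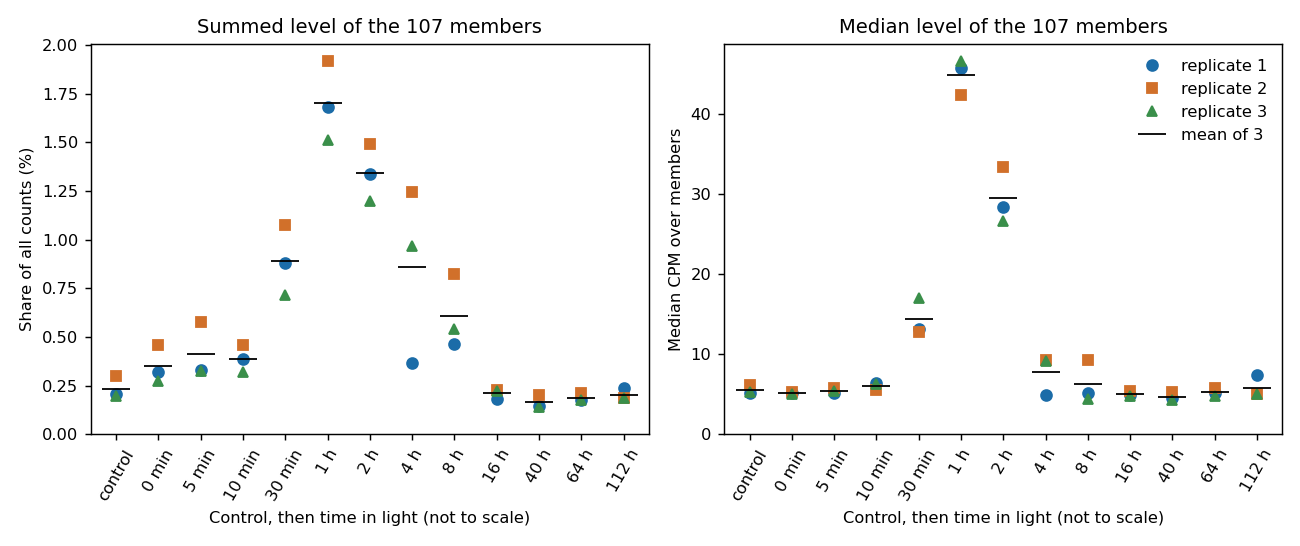
Share of all counts held by the 107 members (left, %) and their median CPM (right) in each library, with control at the left and then time in light, not to scale. Symbols are replicate numbers and bars are means of 3; the 4 h libraries spread widely, with replicate 1 at 0.364% and replicate 2 at 1.25%.

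Several libraries stood apart, and they touch results given below. At 4 h, replicate 1 was the lowest of the 3 libraries for 95 of the 107 members (88.8%), against 31.7% of the 42181 transcripts tested, and lay a median of -1.11 on the log2 scale from the mean of the other two. At 8 h, replicate 2 was the highest for 92 members (86.0%, against 45.2%), and at the last harvest replicate 1 was the highest for 85 members (79.4%, against 42.1%). Over all transcripts, the library most like 4 h replicate 1 was 8 h replicate 3 (Pearson r = 0.994), and the one most like 8 h replicate 2 was 4 h replicate 3 (r = 0.992). In turn, 4 h replicate 3 was most like 8 h replicate 2 (r = 0.992). For 8 h replicates 1 and 3 the most similar library was 4 h replicate 1 (r = 0.987 and 0.994). Each nearest library of the other time was thus 4 h replicate 1 or 8 h replicate 2, or the nearest to one of them. Only 4 h replicate 2 was most like one of its own time (r = 0.985). All libraries are used with the times on their labels. Results that rest on the libraries standing apart are given with and without them. The members' median coefficient of variation between replicates was 18.4% at 1 h, against 17.3% for all transcripts of at least 5 CPM. It was 42.6%, against 13.3%, at 4 h. At 8 h it was 41.7%, against 15.9%.

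The 1 h maximum was a matter of group means, and single libraries showed it less sharply. Within replicate number 1 the highest of the 13 levels was at 1 h for 91 members, within number 2 for 65 and within number 3 for 95. In number 2, 35 members were highest at 2 h. For 54 members the maximum was at 1 h in all 3 numbers, and for 34 members every 1 h library was above all 36 other libraries. At 1 h the coefficient of variation was under 20% for 58 members and above 50% for 11.

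The rule was also applied with 2 replicate numbers and its choice read in the number left out. This chose 94, 116 and 91 transcripts, of which 80, 99 and 80 are members. In the left-out number, 67 of 94, 60 of 116 and 75 of 91 were highest at 1 h, and 73, 85 and 69 were at least 3-fold above the highest of the 3 comparison levels. Relative to 0 min in the same number, the median log2 difference was 1.24 ± 0.11 at 30 min (SD of 3 rotations, which share libraries), 2.44 ± 0.10 at 1 h and 2.03 ± 0.21 at 2 h. At 4 h it was 0.55 ± 0.80, at 8 h 0.05 ± 0.71 and at 16 h 0.01 ± 0.26. The height at 30 min, 1 h and 2 h was thus present in libraries that did not choose the transcripts, whereas the 4 h and 8 h values differed between rotations by more than their mean.

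Differences between times were tested with edgeR's quasi-likelihood test over all 42181 transcripts that passed the filter on low counts, with p-values adjusted by the Benjamini-Hochberg method over all of them. All 107 members passed that filter, and their 1 h level alone is enough to pass it. Tested were 7 comparisons of times that the rule used only in asking that they lie below 1 h. A transcript is called at an adjusted p below 0.05. The share called among all transcripts is given as background, and since neighbouring times of a transcript with a peak are related, a count of members describes the chosen set.

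No member was called between 5 and 10 min. The median log2 difference, 10 min minus 5 min, was -0.02 for members and -0.01 for all transcripts. By edgeR's test 0 members were called, against 0% of all transcripts, and DESeq2 called 0. The median CPM over members was 6.05 ± 0.43 at 10 min and 5.45 ± 0.28 at 5 min (SD, n = 3).

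At 30 min the members were higher than at 10 min. The fitted difference was positive for all 107, with a median log2 of 1.30, against 0.02 for all transcripts. Of the members 62 rose (57.9%), against 2.83% of all transcripts, and 0 fell, against 3.32%. The 62 rose by a median log2 of 1.51, with a range of 0.65 to 3.45. The steepest was the transcript of rank 10, with 6.78 CPM at 30 min and 0.598 CPM at 10 min (log2 3.45, SE 0.79, adjusted p = 0.0053). Without replicate number 3 the count was 24, against 0.766% of all transcripts, and without number 1 it was 41, against 1.14%.

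Between 30 min and 2 h, on either side of the maximum, most members were higher at the later time. The median log2 difference, 2 h minus 30 min, was 0.90 for members and -0.00 for all transcripts. Of the members 64 rose (59.8%), against 17.7% of all transcripts, and 1 fell, against 19.1%. In either direction 65 members were called, against 36.8% of all transcripts. The rises had a median log2 of 1.35 and ran from 0.68 to 3.80. The 1 that fell, rank 94, had 23.5 CPM at 2 h and 32.4 CPM at 30 min (log2 -0.36, SE 0.14, adjusted p = 0.0411 by edgeR). Over the alternatives the count of falls ran from 0 to 2.

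By 4 h most members had fallen below 2 h. The median log2 difference, 4 h minus 2 h, was -1.59 for members and -0.01 for all transcripts. Of the members 87 fell (81.3%), against 8.95% of all transcripts, and 0 rose, against 7.48%. The falls had a median log2 of -1.72 and ran from -4.07 to -0.68. Without 4 h replicate 1, the library that stood apart, 70 members fell, against 4.05% of all transcripts. Without replicate number 1 at all times the count was 57, against 1.87%.

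Between 4 h and 8 h no member was called. The median log2 difference, 8 h minus 4 h, was -0.41 for members and 0.01 for all transcripts. With edgeR 0 members and 0% of all transcripts were called, and DESeq2 called 0 members. Without 8 h replicate 2, 9 members fell, against 0.102% of all transcripts, and without 4 h replicate 1, 4 fell, against 0.111%. Without both, an alternative chosen after seeing the data, 39 members fell, against 1.6% of all transcripts, with a median log2 of -0.98. These libraries were singled out as the lowest at 4 h and the highest at 8 h in most members. Leaving them out thus lowers the members' difference by construction, and the member counts are a description only. Over all transcripts the fit without both called 553 higher and 675 lower at 8 h, against 0 and 0 with all libraries. Whether these 2 libraries carry the right times was not tested.

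**Figure D3:**
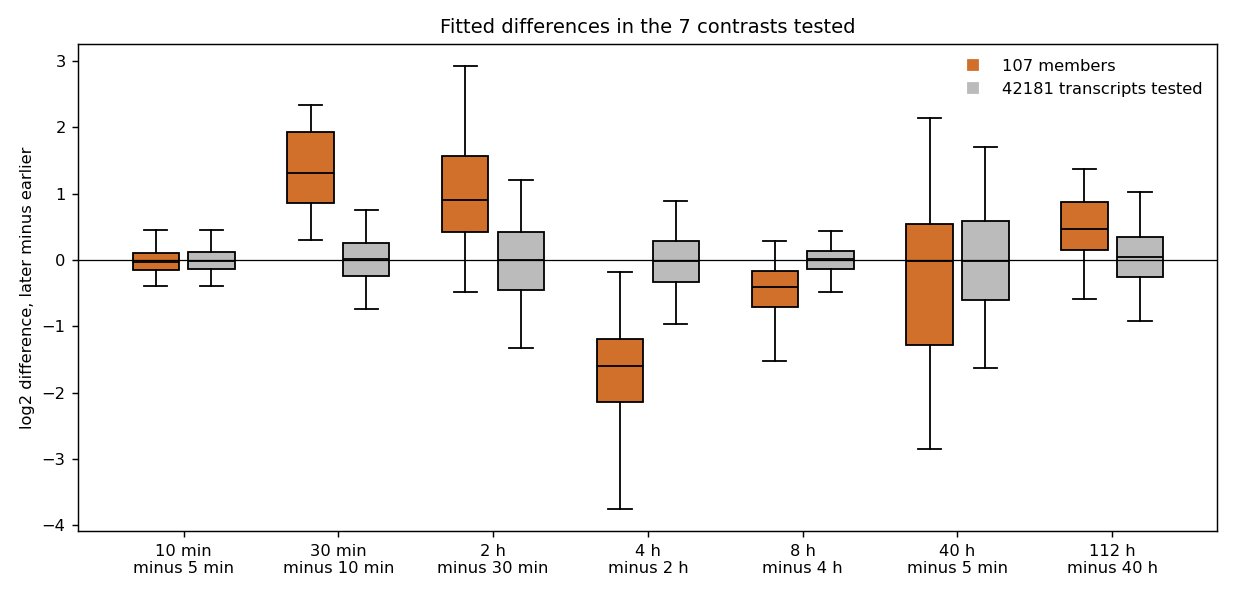
Fitted log2 differences, later minus earlier time, for the 107 members (left box of each pair) and for all 42181 transcripts tested (right box). Boxes span the quartiles with the median as a line, and whiskers the 5th and 95th percentiles. The members' boxes lie above 0 at 30 min minus 10 min, 2 h minus 30 min and the last harvest minus 40 h. At 2 h minus 30 min their lower whisker reaches -0.48. Their boxes lie below 0 at 4 h minus 2 h and at 8 h minus 4 h, where no member was called.

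Late levels differed from early ones in both directions. At 40 h, 21 members were higher than at 5 min (19.6%, against 24.8% of all transcripts) and 29 lower (27.1%, against 26.1%), which is near the background, with a median log2 of -0.02. With scaling by library size alone, which moved the median of all transcripts to -0.14, 12 were higher, against 19.5% of all transcripts, and 30 lower, against 29.6%. The members spread widely here. The lowest difference was -4.37, for the transcript of rank 27, which had 7.82 CPM at 40 h and 172.6 CPM at 5 min (edgeR adjusted p = 3.12e-07). The highest was 3.14, for rank 20, with 5.52 CPM at 40 h and 0.697 CPM at 5 min (adjusted p = 1.85e-06).

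At the last harvest, a whole number of days after 40 h, 15 members were higher than at 40 h (against 7.89% of all transcripts) and 0 were lower, against 9.05%. In either direction 16.9% of all transcripts were called, so the 15 members (14.0% of them) are near that background in number. All 15 were higher, and the share of all transcripts called higher was 7.89%. The median log2 difference was 0.46 for members and 0.04 for all transcripts. The largest was 1.82 for rank 45, with 37.6, 14.4 and 10.6 CPM at the last harvest and a mean of 6.08 CPM at 40 h (SE 0.39, adjusted p = 0.0012). In that transcript replicate 1 was high, as in most members. At the last harvest 5 members, rank 45 among them, were at 50% or more of their 1 h mean, up to 66.7% for rank 71, which had 19.2, 8.04 and 6.30 CPM then and 5.90, 14.4 and 30.0 CPM at 1 h. Replicate 1 was the highest of the 3 at the last harvest in all 5 and, for rank 71, the lowest at 1 h. Without that library the count was 2, against 2.83% of all transcripts. It was 3 without 40 h replicate 1 (against 3.21%), 5 without 40 h replicate 3 (against 3.68%) and 8 with scaling by library size alone (against 5.67%).

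The members differed in how they approached and left the maximum. The 2 h mean was at least 50% of the 1 h mean for 88 members, and the 30 min mean for 28. Both held for 19 members, 2 h alone for 69, 30 min alone for 9 and neither for 10. The 2 h mean was above the 30 min mean in 89 members and below it in 18. The 69 with a late flank had a median of 32.5% of the 1 h level at 30 min and 80.2% at 2 h. The 9 with an early flank had 72.1% at 30 min and 40.9% at 2 h. Among them were ranks 47, 69, 86 and 87, with coefficients of variation at 1 h of 74.0%, 56.3%, 57.1% and 72.5%. The rest of the 9 were not above 50%. For rank 47 the 30 min libraries held 289.9, 724.9 and 34.4 CPM. The 10 narrow ones had 29.7% at 30 min and 44.5% at 2 h, and 10.8% at 4 h. Over all members the median was 38.9% at 30 min, 71.5% at 2 h, 23.5% at 4 h and 14.1% at 16 h, and 18 members were still at 90% or more at 2 h.

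**Figure D4:**
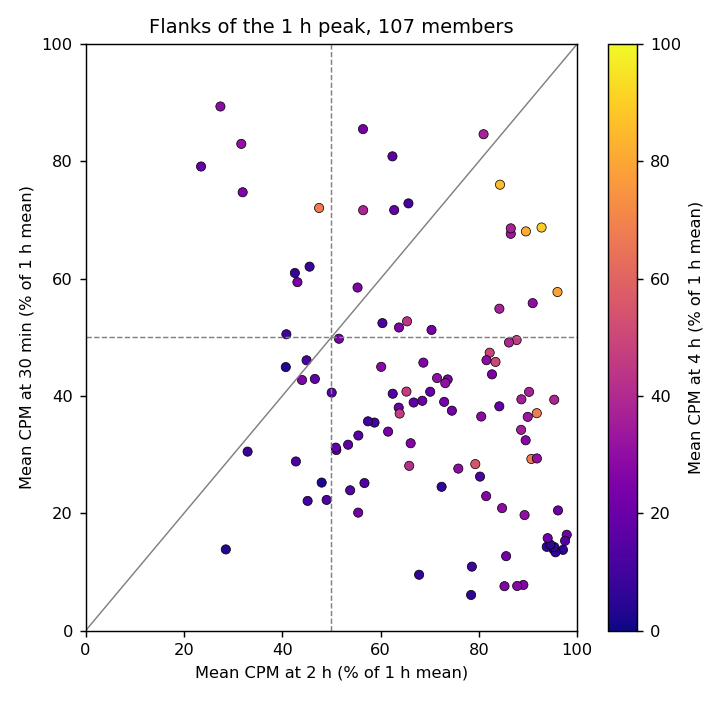
Mean CPM of each member at 2 h (horizontal) and 30 min (vertical), both as % of its 1 h mean, with colour for the 4 h mean on the same scale. Dashed lines mark 50% and the diagonal marks equal flanks; 89 of 107 members lie below the diagonal, where 2 h is higher than 30 min.

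At 4 h 9 members were at 50% or more of their 1 h mean, and among them were the 4 of highest CPM, at 89.6%, 79.3%, 80.9% and 85.5%. They were at 65.0%, 51.8%, 58.3% and 58.1% at 8 h. The highest of all is 698498880, rank 79 by ratio. It had 362.0, 500.05 and 243.8 CPM in control, 653.1, 1041 and 525.8 at 0 min, 1804, 2198 and 1395 at 30 min and 2624, 2995 and 2235 at 1 h. It then had 2448, 2581 and 2256 CPM at 2 h. The 4 h libraries held 1046, 3289 and 2700 CPM, and the 8 h libraries 1149, 2244 and 1712 CPM. The 4 h libraries thus straddle those of 1 h and 2 h, and 4 h minus 2 h was -0.06 (log2, SE 0.36, edgeR adjusted p = 0.937). Without 4 h replicate 1 the 4 h mean of these 4 members exceeded the 1 h mean, at 2994, 2573, 2024 and 1211 CPM in 4 h replicates 2 and 3 against 2618, 2475, 1939 and 1071 CPM at 1 h, and the rule then kept the other 103. Their 1 h maximum therefore rests on that library. At 40 h 698498880 was lower than at 5 min (log2 -1.88, SE 0.37, edgeR adjusted p = 0.0001).

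The largest ratio belonged to 698492153, a transcript with low levels outside the peak. It had 1.92, 1.67 and 1.85 CPM in control and 2.28, 1.45 and 12.8 CPM at 30 min. It had 104.5, 30.0 and 135.8 CPM at 1 h, 55.8, 39.8 and 116.4 CPM at 2 h and 0.969, 6.07 and 9.58 CPM at 4 h. Replicate 2 was the lowest of the 3 at 30 min, 1 h and 2 h, and the coefficient of variation at 1 h was 60.3%. The rise at 2 h over 30 min was 3.80 (log2, SE 0.74, edgeR adjusted p = 0.000146) and the fall at 4 h against 2 h was -3.68 (SE 0.74, adjusted p = 0.000814). At 30 min minus 10 min the difference was 2.07 (SE 0.84, adjusted p = 0.156) and was not called.

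The largest falls after 2 h were those of 698570286 and 698570270. The first had 3.22, 3.43 and 3.61 CPM at 10 min, 12.8, 12.7 and 15.2 CPM at 30 min and 104.4, 103.7 and 87.1 CPM at 1 h. It had 97.9, 126.9 and 61.9 CPM at 2 h and 3.55, 6.42 and 6.99 CPM at 4 h. The fall at 4 h against 2 h was -4.07 (log2, SE 0.27, edgeR adjusted p = 1.87e-11), and every 4 h library lay below every 2 h library. For 698570270 the values were 114.6, 108.4 and 101.8 CPM at 1 h, 94.9, 148.8 and 66.9 CPM at 2 h and 3.07, 7.77 and 8.06 CPM at 4 h, with a fall of -4.02 (SE 0.32, adjusted p = 3.43e-10). Both rose at 30 min over 10 min, by 1.97 (SE 0.26, adjusted p = 6.18e-06) and 2.04 (SE 0.31, adjusted p = 5.20e-05).

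**Figure D5:**
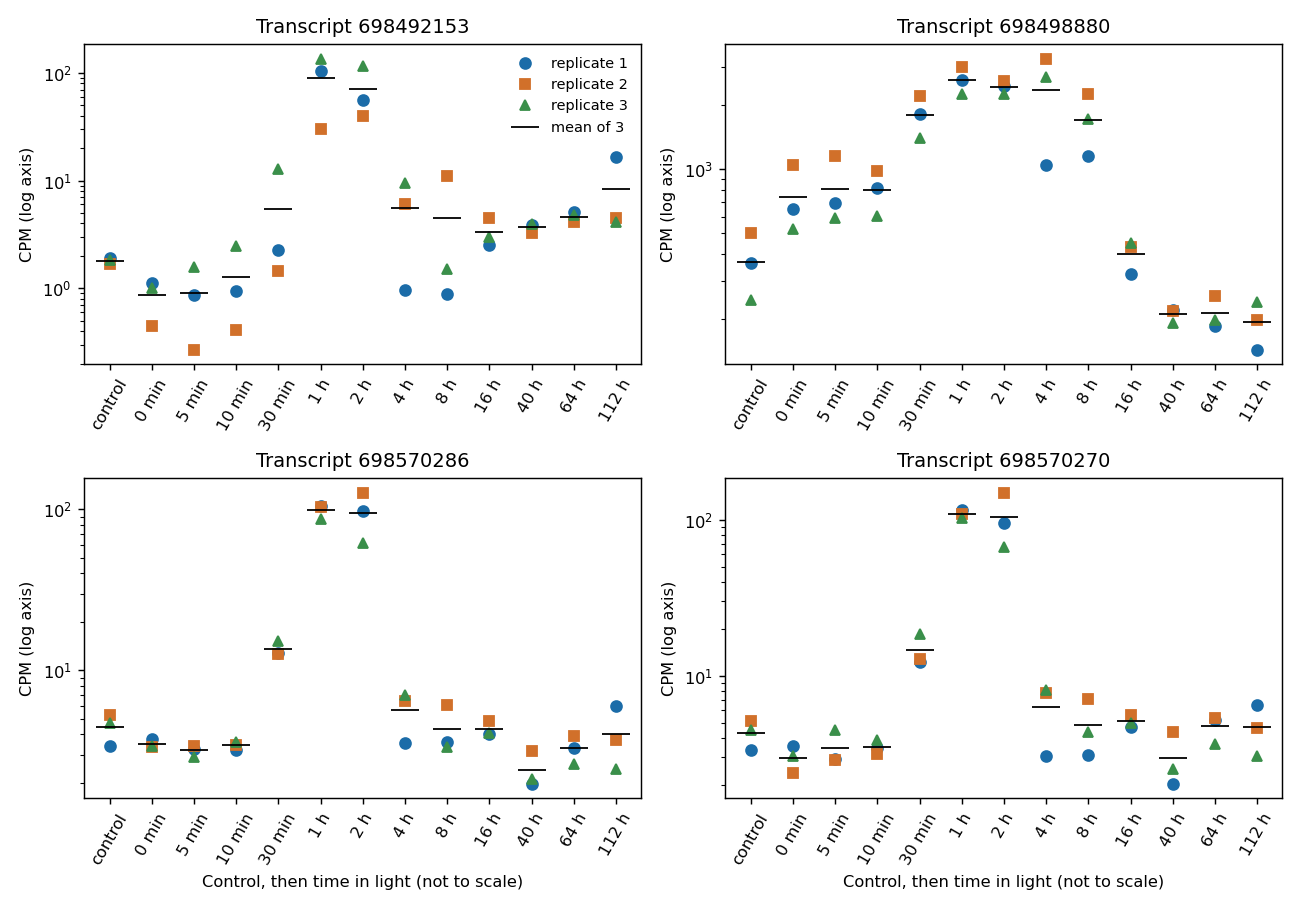
CPM (log axis) of the 4 transcripts given by identifier in every library, with control at the left and then time in light, not to scale. Symbols are replicate numbers and bars are means of 3; 698570286 and 698570270 have nearly the same course, and 698498880 stays high at 4 h and 8 h in replicates 2 and 3.

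In the deposited order these last transcripts are the ends of an unbroken run of 6 members (ranks 2 to 7), whose 1 h means ran from 92.7 to 108.3 CPM. In all, 37 members lay in 13 such runs and 70 were alone. Between the 24 neighbour pairs the median Pearson r over the 39 libraries was 0.98, with a range of 0.511 to 0.996, as a description, since all points share the libraries. Neighbours may be variants or copies that share reads, so members are not independent genes. A run of 3 (ranks 20 to 22) had a late flank. Its members had 26.7 to 40.5 CPM at 2 h and 2.32 to 3.55 CPM at 30 min, and rose by 3.58 to 3.62 on the log2 scale (edgeR adjusted p of at most 1.26e-08). A run of 5 (ranks from 38 to 91) was low, with 5.49 to 7.85 CPM at 1 h. With 1 member per run, 44 of 83 rose at 30 min over 10 min, against 2.83% of all transcripts. At 2 h over 30 min 45 rose, against 17.7%, and at 4 h against 2 h 67 fell, against 8.95%. These shares are over all transcripts, which were not thinned to 1 per run.

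Members also differed in the level they started from, which the rule used and which is given as description. The mean at 0 min was at least 2-fold above control in 19 members, at least 2-fold below it in 11 and within 2-fold in 77. The 19 had a median of 11.4 CPM at 0 min and 1.64 CPM in control, and 94.7 CPM at 1 h. The 11 had 1.39 CPM at 0 min and 5.46 CPM in control, and 32.5 CPM at 1 h. At 16 h, 11 members were at least 2-fold above control, 16 at least 2-fold below and 80 within 2-fold, with a median ratio of 1.08. The transcript of rank 27 is of the first kind, with 140.0, 183.0 and 134.1 CPM at 0 min, 22.1, 38.8 and 21.2 CPM in control and 924.4, 1115 and 857.7 CPM at 1 h.

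In 3 members, of ranks 47, 69 and 86, the 5 min mean was already at 50% or more of the 1 h mean, with replicate 2 the highest of the 3 libraries in each. Rank 47 had 42.9, 514.3 and 94.7 CPM at 5 min and 305.9, 714.3 and 154.1 CPM at 1 h. Replicate 2 was the highest at both times. For rank 47, 30 min replicate 2 (724.9 CPM) and 8 h replicate 1 (319.1 CPM) were above the same-numbered 1 h libraries. The 3 members had pairwise r of 0.94 to 0.98 over the 39 libraries.

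The same rule with the maximum set at 30 min chose 73 transcripts and with the maximum at 2 h chose 198, so the 107 sit between a smaller earlier set and a larger later one.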

How the data were processed

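Leaf polyA RNA of 39 libraries (13 groups of 3) was sequenced as TruSeq libraries, per the labels' protocols, whose extraction text also describes another design that was not used. The deposited tables hold whole-number counts per transcript, not normalized by the authors as far as the values show. The submitters' processing notes name FastQC 0.10.1, BWA 0.70 and SAMtools 1.0. For their roles, the reference and the counting of reads shared by gene copies: not given in the sources used here. Groups came from the titles and treatment labels.

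Python 3.11.15 was used to turn the deposited counts into CPM. Testing used edgeR 4.0.16 under R 4.3.3, where filterByExpr, set to a minimum count of 10 and a minimum total of 15, kept 42181 transcripts. TMM scaling and 1 quasi-likelihood fit to all 39 libraries followed, with 1 mean per group and 7 contrasts. SE is the log2 difference divided by the root of F. The median biological coefficient of variation was 16.4%. DESeq2 1.42.0, other scalings, no filter, a replicate block and left-out libraries were tried as alternatives.

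Same-numbered libraries deviated together between 5 and 10 min (r = 0.28, 0.59 and 0.37) and between 5 min and 40 h (r = 0.25, 0.39 and 0.18). Printed by identifier are the member of largest ratio, that of highest CPM at 1 h and the 2 largest falls at 4 h against 2 h. Members and lists were chosen with earlier results of these data known. Pathway and cell type lists were not tested, because identifiers could not be paired with names.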

Additional observations from a re-analysis of the deposited data

Results flagged for a closer look

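For 65 members the change since 0 min differed between 2 h and 30 min, of which 64 were higher and 1 lower at 2 h, against 36.8% of all transcripts in either direction. This was tested directly as 2 h minus 30 min by edgeR's quasi-likelihood test, in which the 0 min level cancels.

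In the same way the change since 0 min differed between the last harvest and 40 h for 15 members (14.0%), all higher at the last harvest. Of all transcripts 16.9% were called in either direction, so the count is near that background, and 7.89% were called higher. Without replicate 1 of the last harvest the count of members was 2, against 2.83% of all transcripts called higher. It was 3 without 40 h replicate 1 (against 3.21%) and 5 without 40 h replicate 3 (against 3.68%). The part of these libraries in the result was not tested.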

How the results depend on the processing

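No count or named transcript changed direction under the alternatives run. The members' medians near 0 did change sign, with log2 values of -0.11 to 0.12 at 10 min minus 5 min and -0.13 to 0.13 at 40 h minus 5 min. Leaving out libraries or replicate numbers, the members called ran from 24 to 54 at 30 min minus 10 min, from 57 to 88 at 4 h minus 2 h, from 0 to 9 at 8 h minus 4 h and from 0 to 25 at the last harvest minus 40 h, and those lower at 2 h minus 30 min from 0 to 2. In the fits at these ends, 323 and 1072 of all 42181 transcripts rose at 30 min minus 10 min. At 4 h minus 2 h 787 and 3330 fell. Where 9 members fell at 8 h minus 4 h, 43 transcripts did. At the last harvest minus 40 h, 153 and 4473 rose. Members lower at 2 h minus 30 min were 0 with DESeq2 size factors, 0 with no filter, 2 with the replicate block and 2 with only the 6 libraries compared. At 8 h minus 4 h, 39 were lower without 4 h replicate 1 and 8 h replicate 2, chosen after seeing the data. Scaling by library size alone gave 12 higher at 40 h minus 5 min and 8 at the last harvest minus 40 h. A minimum ratio of 2 chose 200 transcripts, the cap, and of 5 chose 38. The cause was not tested.

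In the fit with the replicate block, 72 members rose at 30 min minus 10 min, 91 fell at 4 h minus 2 h and 25 rose at the last harvest minus 40 h. Of all 42181 transcripts, 1644, 4892 and 4539 were called in these directions, against 1192, 3777 and 3327 without the block. Without the block the members called were 62, 87 and 15, so only the last harvest count of members differed by over 1.5 times. Among the other counts, only that of members lower at 2 h minus 30 min did so. In the 5 comparisons other than those of 5 min, at least 1 same-number correlation was under 0.1. At 30 min minus 10 min they were 0.02, 0.44 and 0.54. Each library of 0, 5 and 10 min was most like a same-numbered library of another of these times (r of 0.991 to 0.994). Same-numbered libraries thus shared some variation at the early times, which the main fit leaves out. What they share was not tested. Transcript 698492153 at 40 h minus 5 min (log2 2.17) was no longer called in 8 alternatives. Depth limits transcripts of few CPM, and 3 libraries a group limit all calls.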
